A study of Mus musculus with 185 samples.

Results

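Among single cells captured from injured mouse hearts, 6 cells held Postn mRNA and yet carried no mark from the Postn lineage tracer. They were chosen by their labels alone: they come from the capture that held the Postn-traced cells, and their class is named as activated, Postn+, CD31- and CD45-, with no tracer in the name. They are 6 of the 185 cells of the series and 6 of the 57 cells of that capture, which also held 27 Postn-traced Postn+ cells and 24 Postn- cells without the tracer. They are called here by the cell numbers in the labels, which are 43, 47, 72, 77, 78 and 82.

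The mice were Postn MCM/+; R26-eGFP on a C57BL/6 background and about 5 months old. In them a cassette for MerCreMer, a Cre recombinase that works in the presence of tamoxifen, sits in the first exon of 1 Postn allele, and a Cre-dependent eGFP reporter sits at the Rosa26 locus. The mice had a myocardial infarction by permanent ligation of the left coronary artery and were fed tamoxifen. Cells of the injured region were sorted to remove CD31+ and CD45+ cells and loaded on a Fluidigm C1 chip, where eGFP was read by microscopy, and each cell gave 1 library. All 3 classes of the capture share this description and differ by eGFP and by Postn mRNA. The cells of a group came from several mice, and the labels do not say which cell came from which mouse. Each class was therefore taken as 1 sample, no difference between classes was tested, and each SD is a spread between cells.

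Periostin is a matricellular protein that is scarce in the healthy adult ventricle and is secreted after injury by myofibroblasts, the activated fibroblasts that deposit collagen and fibronectin in the scar. Many myofibroblasts also assemble contractile fibres that contain alpha smooth muscle actin, the product of Acta2. A cell is traced only if its Cre was made while tamoxifen was present and recombined the reporter, and the mark then stays for the life of the cell and its daughters.

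Levels are given as log2 (TPM + 1), where TPM is transcript abundance scaled for transcript length and to the same total in every cell, and a gene counts as detected above 5 TPM. A difference is the mean of the 6 cells minus the mean of the 27 traced cells on that scale. Genes given as listed at 0 have a value of exactly 0 in the deposited table, and in single cells this does not show that the transcript was absent from the cell. Shares of cells are followed by exact 95% Clopper-Pearson intervals, which cover counting error only.

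Postn itself was used to name the classes, so its levels only describe the choice. Postn, at chr3:54361109-54391037 on the plus strand of the mm10 build, stood at 7.54 in cell 43, 10.63 in cell 47, 10.69 in cell 72, 12.07 in cell 77, 11.22 in cell 78 and 10.06 in cell 82. The traced cells ran from 9.60 through a median of 11.69 to 14.08. The lowest cell with the Postn+ name in this capture was thus cell 43, and the highest of the 24 Postn- cells reached 4.41. In the Postn- class 3 of 24 cells were above 5 TPM (12.5%, 2.66 to 32.4%).

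Before the comparisons, 3 features of the cells have to be stated. The first is that cell 77 goes against its fibroblast label. It held 4 of 4 genes of a glial marker list, from which 2 genes had been left out after the values were known, with Kcna1, a potassium channel gene, at 10.36, S100b at 8.71, Sox10, the transcription factor of neural crest glia, at 4.12, and Cdh19 at 3.42. The list summed to 1756 TPM in that cell, and the most any other cell of the series held was 1 of 4 genes. Among the other 5 untraced cells the single glial gene above 5 TPM was Cdh19 in cell 47, at 4.47. In the whole series Sox10 and Kcna1 were each above 5 TPM in 1 of 185 cells, S100b in 8 and Cdh19 in 23.

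Further genes in cell 77 were picked after their values were seen. Gfra3, a receptor for a neurotrophic factor, stood at 10.41, Gfap, an intermediate filament of glia, at 9.55, and the adhesion gene L1cam at 7.61, and each was above 5 TPM in 1 of 185 cells. Ncam1, another adhesion gene, stood at 10.15 in cell 77 but was above 5 TPM in 56 of 185 cells. The same cell held 4 of 6 fibroblast markers, but their sum was 1531 TPM, against 15866 to 25870 TPM in the other 5 cells and a median of 19761 TPM in the traced cells. Dcn, the proteoglycan gene typical of fibroblasts, was at 4.06 in cell 77 and no lower than 11.21 in any traced cell. Results are given with and without cell 77 where it moves them.

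The second feature is the sex-linked genes, also looked at after the values were seen. Xist, the RNA of the inactive X chromosome, was listed at 0 in all 6 untraced Postn+ cells and in all 24 Postn- cells, and was above 5 TPM in 11 of 27 traced cells. Of Ddx3y, Eif2s3y, Kdm5d and Uty, all on the Y chromosome, at least 1 was above 5 TPM in 4 of the 6 cells (43, 47, 72 and 82), in 10 of 27 traced cells and in 17 of 24 Postn- cells. No cell of the capture had both signals. In cells 77 and 78 neither was detected, as in 6 traced and 7 Postn- cells. The traced cells with a signal thus showed one or the other, while no untraced cell showed Xist, so class and mouse of origin cannot be told apart.

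The third feature is the number of genes detected. Above 5 TPM, cell 43 had 2258 genes, cell 47 had 2211, cell 72 had 3772, cell 77 had 1724, cell 78 had 1598 and cell 82 had 2838. The traced cells ran from 2155 through a median of 3643 to 4541, and the Postn- cells from 1809 through 2342 to 4881. The median of the 6 was 2234.5, lower than the traced median by 1408.5 genes. Of the 6, cell 72 alone was above the traced median, and cells 77 and 78 had fewer genes than any traced cell. No cell of the capture was below 50% of the capture median of 2715.0 genes.

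The gene number moved with how concentrated the libraries were. The 100 most abundant genes took 51.4% of all TPM in cell 77, 50.6% in cell 78, 44.2% in cell 47, 41.3% in cell 43, 39.3% in cell 82 and 35.8% in cell 72. In the traced cells this share ran from 33.6% through 37.9% to 48.1%. Cells 77 and 78, the cells of fewest genes, thus lay above the traced range. Of 2367 genes that were above 5 TPM in at least 14 of the 27 traced cells, the 6 cells detected between 840 and 1804 and the traced cells between 1079 and 2049. Those genes were chosen through the traced cells, so a higher number in that class is built in. The read depth of single cells is unknown, and the part of depth or RNA quality in what follows was not tested.

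Acta2, at chr19:34241090-34255590 on the minus strand, was listed at 0 in all 6 cells. It was above 5 TPM in 0 of 6 (0 to 45.9%), in 15 of 27 traced cells (55.6%, 35.3 to 74.5%) and in 3 of 24 Postn- cells (12.5%, 2.66 to 32.4%). In the traced cells it ran from 0 through a median of 4.91 to 10.23, and 11 of the 27 were listed at 0 (40.7%). The mean difference was -4.25, set entirely by the traced level, and leaving out cell 77 gave the same value.

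The count was also taken within traced cells grouped by gene number and by the sex-linked genes. Among the 15 traced cells with no more genes than cell 72, Acta2 was above 5 TPM in 7 (46.7%, 21.3 to 73.4%). Among traced cells with a Y-linked gene it was above 5 TPM in 6 of 10, and among those with Xist in 6 of 11. Those 15 traced cells ran from 2155 genes through a median of 3178 to 3646, against a median of 2234.5 in the 6. Among traced cells with no more genes than cell 82, a count added after seeing the data, Acta2 was above 5 TPM in 2 of 5 (40%, 5.27 to 85.3%), and cells 77 and 78 had fewer genes than any of them. The part of the gene number in the Acta2 values of 0 was not tested.

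**Figure D1:**
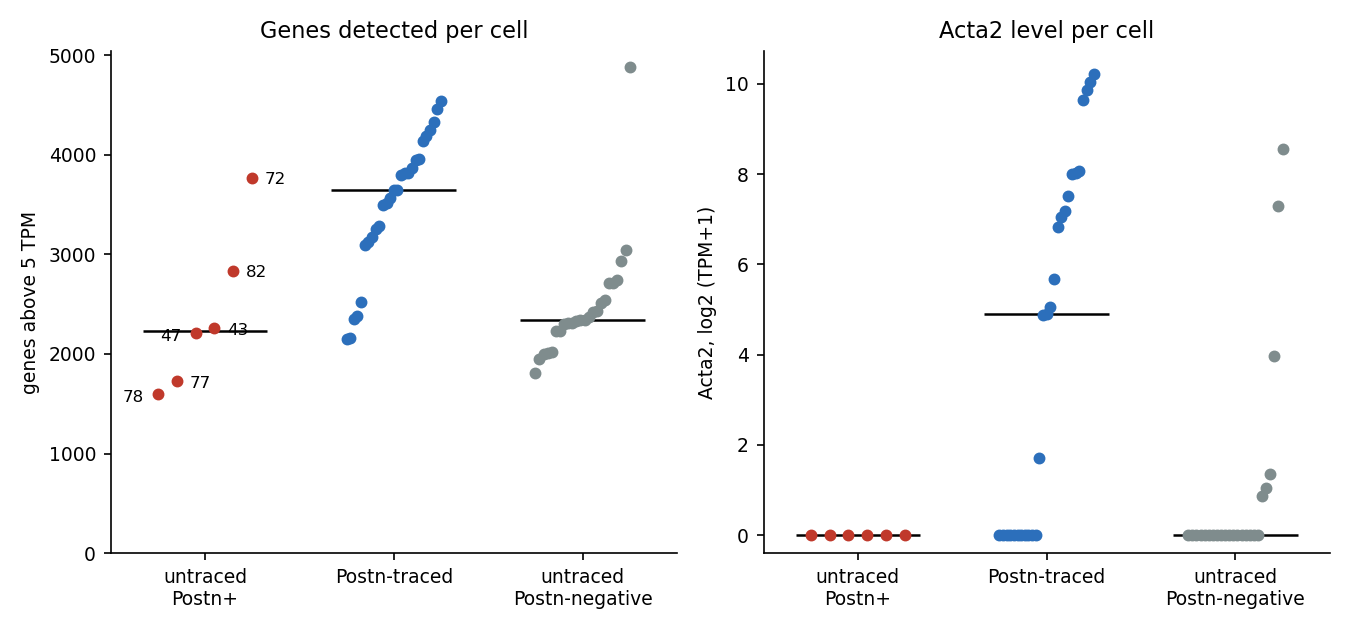
Genes above 5 TPM (left) and Acta2 in log2 (TPM + 1) (right) by class, with 1 point per cell of the capture in order of its value and a line at each class median. The 6 numbered cells lie between 1598 and 3772 genes and all at 0 for Acta2, while the traced cells lie between 2155 and 4541 genes and from 0 to 10.23 for Acta2.

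Other contractile genes were not missing from the 6 cells as a group. Tagln, which encodes the actin-binding protein transgelin, was at 8.69 in cell 43 and listed at 0 in the other 5, against 14 of 27 traced cells above 5 TPM. Myl9, a myosin light chain, was at 10.91 in cell 78, above the highest traced cell at 10.07, and listed at 0 in the other 5. Each of these smooth muscle genes was thus in 1 of the 6 cells, and not in the same one. Csrp2, a LIM protein of smooth muscle and activated fibroblasts, was at 9.41 in cell 72 and 12.33 in cell 78, and listed at 0 in the remaining 4, while 25 of 27 traced cells were above 5 TPM.

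The list of 20 contractile and actin cytoskeleton genes had 19 that passed the filter of more than 5 TPM in at least 3 of the 33 Postn+ cells. Counts and medians of lists are over all their genes in the table, here 20. The median difference was -1.97, and 10 were lower by over 2 log2 units with 0 higher (without cell 77, median -1.85, 8 lower and 0 higher). Over all 9187 genes that passed, the median difference was -0.70 (without cell 77, -0.66), 12.6% were lower by over 2 units and 2.27% were higher. A gene with a traced mean under 2 cannot be lower by over 2 units, which holds the 12.6% down. Of the 4160 genes above 5 TPM in at least 10 of the 33 cells, 1047 were lower and 118 higher, with a median of -1.04. The extremes of the list were Csrp2 at -5.32 and Flna, the actin cross-linker filamin A, at 0.69. The 6 cells detected 9, 11, 12, 8, 11 and 13 of the 20 genes, in the order of their numbers, within the traced range of 8 to 19 and below its median of 15.

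The genes the study used to describe myofibroblasts were lower as a group, with Fn1 the farthest. This list of 14 genes was used by the study on these same libraries, so it may not be independent of the traced cells. Its median difference was -2.04, with 7 genes lower by over 2 units and 0 higher (without cell 77, -1.71, with 5 lower and 0 higher). Over all genes that passed the filter, 12.6% were lower and 2.27% higher, with a median of -0.70 (without cell 77, 11.6%, 3.34% and -0.66). The member of the list nearest to the traced level was Eln, the elastin gene, at -0.71. Leaving out Postn gave a median of -2.20 over the other 13 genes. The cells differed among themselves: the median over the 14 genes, relative to the traced mean, was 0.54 in cell 72, -1.12 in cell 78, -2.35 in cell 82, -3.44 in cell 43, -3.46 in cell 47 and -3.87 in cell 77.

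Fn1, at chr1:71585520-71653200 on the minus strand, encodes fibronectin, the early matrix on which collagen is laid down. It was at 9.18 in cell 72 and 9.64 in cell 78, and at 1.83 in cell 82, 1.21 in cell 47, 0.75 in cell 77 and 0 in cell 43. All 27 traced cells lay between 7.09 and 10.77, with a median of 9.64, and 11 of 24 Postn- cells were above 5 TPM. Cells 72 and 78 were thus inside the traced range and the other 4 were below all of it. The difference was -5.71 (without cell 77, -5.11), beside an SD of 0.98 between the traced cells and of 4.41 between the 6.

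The fibrillar collagens differed from cell to cell. Relative to the traced mean, the median over the 7 genes was 1.15 in cell 78 and -0.60 in cell 72. It was -2.65 in cell 43, -2.66 in cell 47, -2.76 in cell 77 and -3.19 in cell 82. Over all genes the median difference was -0.70 for the mean of the 6, which gives no scale for a single cell. Col1a1 was at 13.02 in cell 78, above the highest traced cell at 12.02. In the others it was at 9.20 in cell 72, 7.62 in cell 77, 7.26 in cell 82, 3.10 in cell 47 and 2.26 in cell 43. The traced cells ran from 3.85 through 10.80, and the Postn- cells had a median of 6.51. Cells 43 and 47 were therefore below every traced cell and cell 78 above every one, and the mean difference was -3.38 (without cell 77, -3.49). Of 7 fibrillar collagen genes, 2 were lower by over 2 units and 0 higher, beside 12.6% lower and 2.27% higher over all genes. The median difference of the list was -1.88 (without cell 77, 3 lower and -1.93), and Col5a3 was nearest to the traced level at -0.56.

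Genes of other matrix roles also divided the 6 cells, in ways that differed from gene to gene. Cthrc1, a secreted glycoprotein of collagen-depositing fibroblasts, was at 12.33 in cell 78, 8.96 in cell 77 and 7.92 in cell 72, and listed at 0 in cells 43, 47 and 82. It was above 5 TPM in 26 of 27 traced cells, with a median of 10.85, and in 3 of 24 Postn- cells. Of the 6 cells, 3 were thus inside the traced range and 3 below it. Tnc, the matricellular protein tenascin C, was at 6.62 in cell 72 and listed at 0 in the other 5, against 19 of 27 traced cells above 5 TPM. Lox, the enzyme that cross-links collagen and elastin, was at 8.02 in cell 72, 7.21 in cell 82, 4.14 in cell 43 and 3.12 in cell 78, and listed at 0 in cells 47 and 77, against a traced median of 8.05.

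Over lists, 6 of 12 matricellular genes, of which 11 passed the filter, were lower by over 2 units and 0 higher (median -1.90; without cell 77, 5 lower and -1.60). Of 14 elastic fibre and microfibril genes, 5 were lower and 1 higher (median -1.37; without cell 77, 3 lower, 1 higher and -0.82), from Mfap4, a microfibril glycoprotein, at -5.97 to Efemp1, a fibulin, at 2.14. Of 13 genes for collagen processing and cross-linking, 4 were lower and 0 higher (median -0.93; without cell 77, 2 lower, 1 higher and -0.56), from Lox at -3.83 to P4ha1, a prolyl hydroxylase subunit, at 1.14. With all 6 cells these shares of lower genes were above the 12.6% of all genes, and without cell 77 the collagen processing count, 2 of 13, was near the 11.6% of all genes. The 12.6% is held down by genes of low traced level, and under the filter at 10 of 33 cells 1047 of 4160 genes were lower. Of 14 TGF-beta pathway genes, of which 12 passed, 1 was lower and 0 higher, with a median of -0.16 (without cell 77, 0 lower and -0.07).

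Genes of the resident fibroblast went the other way in 4 of the 6 cells. The list of 16 such genes was chosen with earlier results of these data known, so it may not be independent of them. Its median difference was 1.89 (2.82 without cell 77 and 1.15 without cell 47), with 8 genes higher by over 2 units and 1 lower (without cell 77, 12 and 0). Over all genes that passed the filter 2.27% were higher and 12.6% lower (without cell 77, 3.34% and 11.6%). Relative to the traced mean, the median over the 16 genes was 5.52 in cell 43, 4.19 in cell 47, 3.87 in cell 82 and 2.48 in cell 72, but -3.08 in cell 77 and -2.87 in cell 78. Cells 43 and 47 detected 15 of the 16 genes each, cells 72 and 82 detected 14 each, cell 77 detected 6 and cell 78 detected 5. The traced cells detected 5 to 15, with a median of 10, and the Postn- cells 7 to 16, with a median of 14.

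Immediate early genes, which cell dissociation can induce, were high in 3 of the same cells. Relative to the traced mean, the median over 17 such genes was 3.36 in cell 47, 2.99 in cell 43, 1.95 in cell 82, 0.54 in cell 77, -1.31 in cell 72 and -5.17 in cell 78. Cells 43, 47 and 82 thus stood highest on these genes as well as on the resident fibroblast genes, and the part of dissociation in the latter was not tested.

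Tcf21, the transcription factor that marks the resident fibroblast lineage, was at 7.00 in cell 43, 8.01 in cell 47, 7.37 in cell 72 and 7.57 in cell 82, and listed at 0 in cells 77 and 78. It was above 5 TPM in 13 of 27 traced cells, up to 9.68, and in 19 of 24 Postn- cells, so the classes overlapped. Pdgfra, the receptor for platelet-derived growth factor on fibroblasts, was at 8.79 in cell 82, 8.31 in cell 72, 4.82 in cell 47 and 0.68 in cell 78, and listed at 0 in cells 43 and 77. It was above 5 TPM in 24 of 27 traced cells with a median of 5.99, and was the member of the resident list farthest below the traced level, at -2.02 (without cell 77, -1.27).

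Gsn, at chr2:35256380-35307892 on the plus strand, encodes gelsolin, which severs actin filaments. It was at 14.73 in cell 47, 14.12 in cell 82, 14.11 in cell 43, 11.44 in cell 72, 7.68 in cell 77 and 3.94 in cell 78. The traced cells ran from 3.58 through a median of 8.37 to 14.09, and the Postn- cells from 7.63 through 14.49 to 14.76. Cells 43, 47 and 82 were above every traced cell and inside the Postn- range. Cell 78 was near the bottom of the traced range and below every Postn- cell.

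Other single genes of the resident list divided the cells in other ways. Gstm1, a glutathione transferase, was at 12.91 in cell 47, 12.03 in cell 43, 9.58 in cell 82, 7.85 in cell 77, 3.91 in cell 72 and 1.97 in cell 78, against medians of 5.45 in the traced and 11.42 in the Postn- cells. Scara5, a scavenger receptor that takes up ferritin, was at 9.85 in cell 47 and 7.18 in cell 43 and listed at 0 in the other 4, against 3 of 27 traced and 20 of 24 Postn- cells above 5 TPM. Hsd11b1, which regenerates active glucocorticoid, was at 9.04 in cell 82, 8.45 in cell 47 and 6.16 in cell 43 and listed at 0 in the other 3. The traced cells reached 6.19 for that gene, with 3 of 27 above 5 TPM. For Scara5 and Hsd11b1 the levels of cells 43 and 47, and of cell 82 for Hsd11b1, were therefore near or above the top of the traced class.

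**Figure D2:**
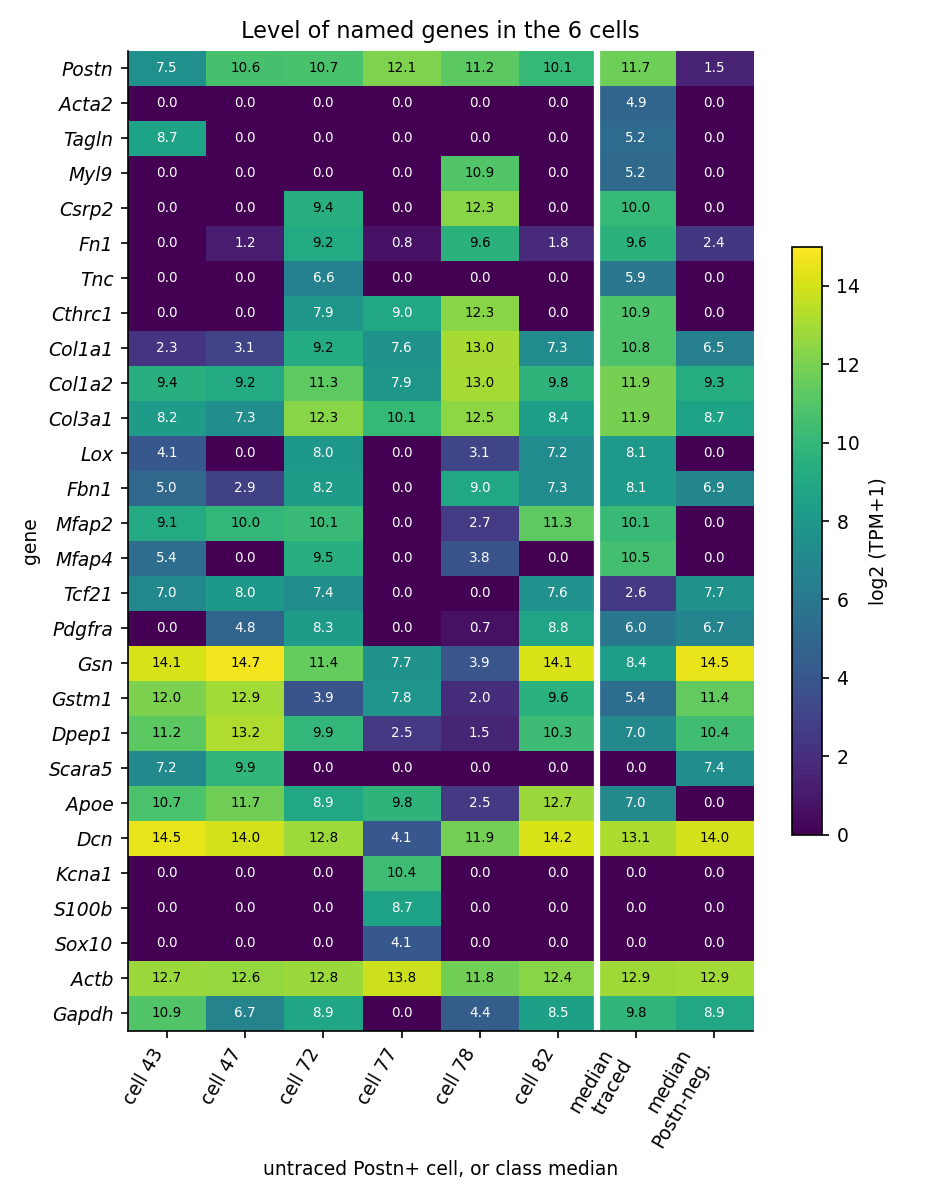
Levels of named genes in log2 (TPM + 1), as colour and number (genes down, cells across), in each of the 6 cells beside the medians of the traced and Postn- classes. Cells 43, 47 and 82 hold Gsn above 14 with Fn1 below 2, cells 72 and 78 hold Fn1 above 9, and Acta2 is listed at 0 in all 6.

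A wider view used genes that separate the other classes of the capture. Genes above 5 TPM in at least 14 traced cells and over 2 log2 units higher in the traced than in the Postn- mean numbered 530 of 17171 (3.09%), and the opposite rule, with at least 12 Postn- cells, gave 85 (0.495%). The 6 cells took no part in choosing them, but the traced and Postn- cells did, so a higher level of each set in its own class is built in. The mean level over the 530 traced-high genes was 5.21 in cell 72, 3.86 in cell 82, 2.94 in cell 43, 2.87 in cell 47, 2.70 in cell 78 and 1.98 in cell 77. The traced cells ran from 3.34 through 5.72 to 6.41 and the Postn- cells from 1.78 through 2.51 to 5.29. Cells 72 and 82 were inside the traced range, 2 of 6, and the other 4 were below it. All 6 were inside the Postn- range.

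For the 85 genes high in the Postn- class, the mean was 6.68 in cell 47, 6.00 in cell 43, 5.93 in cell 82, 4.97 in cell 72, 2.47 in cell 77 and 1.58 in cell 78. The Postn- cells ran from 3.87 through 6.56 to 7.72 and the traced cells from 1.35 through 3.22 to 5.56. Cells 43, 47, 72 and 82 were inside the Postn- range, 4 of 6, and cells 77 and 78 were below it. Cells 72, 77 and 78 were inside the traced range of this set. Cells 77 and 78, the cells of fewest genes, were thus below the range of the class in which each set was high. On each set they were within the range of the other class.

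By correlation across the 9187 genes, which are not independent of each other, cell 72 was nearer to the traced mean (r of 0.636 against 0.605 with the Postn- mean), and so was cell 78 (0.479 against 0.444). The other 4 were nearer to the Postn- mean, with 0.573 against 0.614 in cell 43, 0.564 against 0.614 in cell 47, 0.603 against 0.620 in cell 82 and 0.402 against 0.416 in cell 77. That is 2 of 6 nearer to the traced mean (33.3%, 4.33 to 77.7%), beside 26 of 27 traced cells (96.3%, 81 to 99.9%) and 1 of 24 Postn- cells (4.17%, 0.105 to 21.1%), each cell being left out of its own class mean. The traced minus Postn- margins of the 6 ran from -0.0502 to 0.0349. Each of cells 72 and 78 makes up 1 of the 2, so that leaving out either gives a count of 1.

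**Figure D3:**
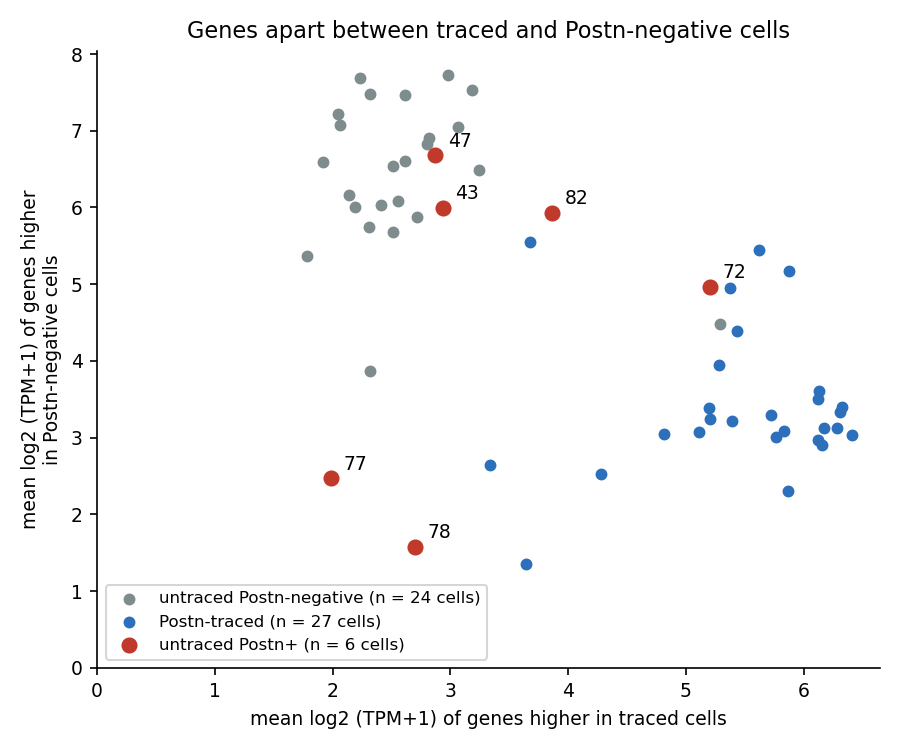
Mean level per cell in log2 (TPM + 1) over the 530 genes high in the traced class (horizontal) and the 85 genes high in the Postn- class (vertical), with 1 point per cell of the capture. Cell 72 lies near the traced cells at 5.21 and 4.97, cells 43 and 47 lie with the Postn- cells, and cells 77 and 78 lie low on both axes.

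Taken cell by cell, cell 72 had the highest correlation with the traced mean of the 6. It had the most genes of the 6, detected 12 of 14 study myofibroblast genes and held Fn1, Tnc, Lox, Cthrc1 and Csrp2 inside the traced ranges. It also held Tcf21 at 7.37 and Pdgfra at 8.31, and 14 of 16 resident fibroblast genes. Comp, a cartilage matrix protein chosen after its values were seen, was at 8.07 in cell 72, above the highest traced cell at 5.76.

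Cell 78 had the fewest genes of all 57 cells and the highest collagen levels of the 6. Col1a1 was at 13.02, Col1a2 at 12.98 and Col3a1 at 12.47, and Sparc, a matricellular protein that binds collagen, was at 14.42. Further matrix genes, chosen after their values were seen, were Comp at 11.37, Sfrp2 at 12.25, Smoc1 at 9.99 and Tnn, tenascin N, at 9.86. Comp, Sfrp2, Smoc1 and Tnn were each above the highest traced cell in cell 78. Fth1, the ferritin heavy chain gene found in the traced cells at 9.18 or more, was listed at 0 there, so an abundant gene was listed at 0 in a cell with few genes.

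Cells 43 and 47 shared several of the genes above. Both held Gsn, Gstm1, Scara5, Hsd11b1 and Tcf21, with Fn1 at 0 and 1.21, Cthrc1 and Tnc listed at 0 in both and Col1a1 below the traced range. They differed in Postn, at 7.54 and 10.63, and in genes listed at 0 in one of them, among these Tagln, Lox, Mfap4 and Lyrm5, found in cell 43, and Pdgfra and Eln, found in cell 47. Mfap2, a microfibril gene of the study list that was above 5 TPM in 5 of 24 Postn- cells, was at 9.14 in cell 43 and 9.96 in cell 47, near the traced median of 10.12.

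Cell 82 joined resident and matrix genes. It held Gsn at 14.12, Tcf21 at 7.57 and Pdgfra at 8.79 beside Mfap2 at 11.26 and Lox at 7.21, with Fn1 at 1.83. Pecam1, which encodes CD31, was at 3.73 in cell 82 and listed at 0 in the other 5. The traced cells reached 1.30 for Pecam1 and 2 of 24 Postn- cells were above 5 TPM.

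Cell 77, with its glial genes, held Postn at 12.07, Sparc at 13.17 and Cthrc1 at 8.96, but Fn1 at 0.75 and Lum, a proteoglycan gene looked at after the values were seen, at 0. Its Gapdh was also listed at 0 and its Rplp0, a ribosomal protein gene, was at 2.80, against 6.52 or more in every traced cell. It had 65 genes above 5 TPM that no other cell of the capture had, against 13 to 48 in the other 5 cells and 17 to 92 in the traced cells.

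Beside the glial genes of cell 77, markers of other cell types were looked at in the 6 cells. Ptprc, which encodes CD45, was listed at 0 in all 57 cells of the capture, and Wt1 in all 6. Of 4 endothelial genes in the table, cells 43, 47 and 82 held 1 each, with sums of 91.5, 11.5 and 12.8 TPM, and the other 3 cells summed to 0. Tek was the most abundant of them, and Kdr and Emcn were listed at 0 in all 6. Of 5 myeloid genes, Cd68 at 2.92 in cell 72 was the single one above 5 TPM. Of 6 pericyte genes, cell 47 held 2, cell 77 held 0 and the others 1 each, with Pdgfrb the most abundant and Rgs5 and Kcnj8 listed at 0. Of 6 smooth muscle genes, cells 43, 72 and 82 held 1 each, with Tagln the most abundant and Myh11 listed at 0. The 2 lymphocyte, 5 cardiomyocyte and 5 epicardial genes gave 0 detected in each of the 6 cells.

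Genome-wide, lower genes far outnumbered higher ones. Of the 9187 genes, 1157 were lower by over 2 log2 units (12.6%) and 209 were higher (2.27%). By over 1 unit, 3407 were lower (37.1%) and 774 higher (8.42%). Without cell 77 the counts were 1063 lower (11.6%) and 305 higher (3.34%) of 9126 genes. The median over all genes was -0.70, and after subtracting from every cell its own median over detected genes it was -1.03, with 1696 lower (18.5%) and 126 higher (1.37%). Higher genes made up 15.3% of those past 2 units, 22.3% without cell 77, 6.92% after centring and 36% without the pair of cells of fewest genes (77 and 78), an alternative added after seeing the data. Without cell 78 alone, 354 of 9162 genes were higher (3.86%). The count of higher genes therefore moved with whether the cells of fewest genes were included.

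Against the 10 traced cells with a Y-linked gene, a comparison added after seeing the data, 1599 of 6475 genes were lower by over 2 units (24.7%) and 232 higher (3.58%). The Acta2 difference was then -4.92, the median over the study myofibroblast genes -2.17 and that over the resident fibroblast genes 2.97, and the gene number differed by -1675.5. Against the 15 traced cells with no more genes than cell 72, 853 of 6845 genes were lower (12.5%) and 302 higher (4.41%), with -2.95 for Acta2, -1.73 for the study myofibroblast genes and 1.48 for the resident fibroblast genes. The differences of both gene lists kept their sign in both comparisons, while that of Acta2 could not change sign with all 6 cells at 0.

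No gene of the 9187 separated the 6 cells fully from the 27 traced cells in either direction (0%). Of the 1157 lower genes, 296 were among the 530 traced-high genes, which is 25.6% of the former and 55.8% of the latter. Of the 209 higher genes, 26 were among the 85 genes high in the Postn- class, which is 12.4% and 30.6%. These overlaps share the traced cells as a reference and are given as counts.

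The higher genes were named by size among genes above 5 TPM in at least 3 of the 6 cells, so that their detection in the 6 is partly built in. The first was Pcsk6, a proprotein convertase that cleaves secreted precursors. It was at 10.15 in cell 47, 9.78 in cell 78, 8.67 in cell 43, 8.10 in cell 77, 7.08 in cell 82 and 3.26 in cell 72, so that all 6 were above 5 TPM (100%, 54.1 to 100%). In the traced class 11 of 27 were above 5 TPM (40.7%, 22.4 to 61.2%), with a median of 1.05 and the highest at 10.15, and in the Postn- class 20 of 24 (83.3%, 62.6 to 95.3%). The lowest level was in cell 72, the cell of most genes. The difference was 4.98, although the ranges of the 6 and of the traced cells overlapped.

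Other higher genes were held by some of the 6. Penk, the precursor of enkephalin, was at 10.50 in cell 82, 9.39 in cell 47 and 9.15 in cell 43, listed at 0 in the other 3, and above 5 TPM in 2 of 27 traced and 10 of 24 Postn- cells. Apoe, a lipid carrier, was at 12.72 in cell 82, 11.75 in cell 47, 10.73 in cell 43, 9.78 in cell 77, 8.94 in cell 72 and 2.46 in cell 78. Irf1, a transcription factor of the interferon response, was at 10.83 in cell 43, 10.29 in cell 82, 8.31 in cell 47 and 4.78 in cell 72. Cells 43, 47 and 82 held all of Penk, Apoe and Irf1, the traced class having medians of 0, 7.04 and 0. The Apoe difference was 4.25 and the Irf1 difference 4.0 (without cell 77, 4.17 and 5.19), and the highest traced cells stood at 10 for Penk, 12.99 for Apoe and 10.16 for Irf1.

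The remaining 6 genes of the first 10 were Lyrm5 (4.24), Ncoa1 (4.10), Stag2 (4.09), Casp4 (3.99), Erdr1 (3.97) and Gadd45g (3.94). Casp4, an inflammatory caspase, and Erdr1 were above 0 in all 6 cells, Casp4 from 4.95 to 10.11 and Erdr1 from 5.89 to 11.78. Ncoa1, a coactivator of nuclear receptors, was also above 0 in each, from 2.14 to 7.89. Lyrm5 was listed at 0 in cells 47 and 72, Stag2, a cohesin subunit, in cell 82 and Gadd45g, a stress-induced growth arrest gene, in cell 78. For Lyrm5 the difference fell to 3.23 without cell 77.

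Among the lower genes, Mrps21, a protein of the mitochondrial ribosome, was the farthest. It was at 4.74 in cell 72 and listed at 0 in the other 5, against 25 of 27 traced cells above 5 TPM with a median of 8.84, a difference of -7.29. Next were Mdk, the growth factor midkine (-6.02), Mfap4 (-5.97), Med1, a Mediator subunit (-5.88), Fn1 (-5.71), the clone-named gene 1810058I24Rik (-5.70), Cthrc1 (-5.64), Impact (-5.58), Ddah1 (-5.54) and Fkbp10, a collagen chaperone (-5.52). Mdk, Impact and Ddah1 were listed at 0 in all 6 cells. Mrps21 and Impact were also above 5 TPM in 17 and 15 of 24 Postn- cells, while Ddah1, which breaks down an inhibitor of nitric oxide synthase, was so in 0 of 24.

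Mfap4 was at 9.47 in cell 72, 5.37 in cell 43 and 3.83 in cell 78 and listed at 0 in the other 3, against a traced range of 1.87 through 10.53 to 12.21. Of 2367 genes above 5 TPM in at least 14 traced cells, 46 were listed at 0 in all 6 cells (1.94%), a set again chosen through the traced cells, and Acta2 was among them with Mdk, Impact, Ddah1 and Fap, a surface protease of activated fibroblasts. Fap was above 5 TPM in 15 of 27 traced and 4 of 24 Postn- cells. The pattern of Acta2, high in many traced cells and 0 in each of the 6, was therefore shared by 45 other genes of that set.

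**Figure D4:**
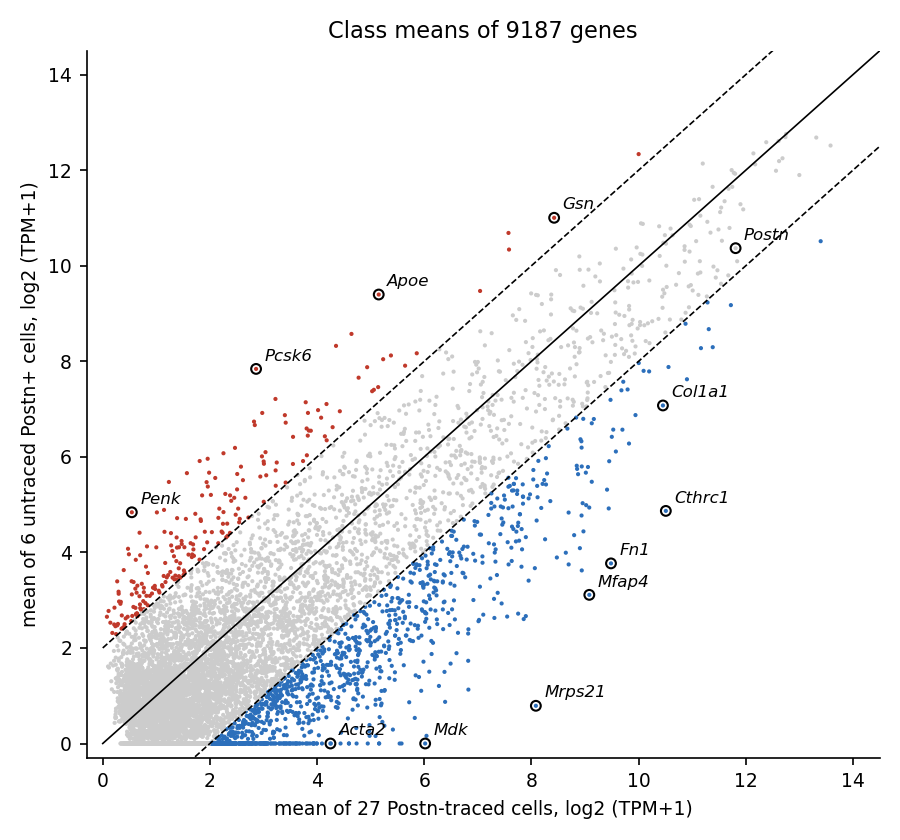
Mean level of each gene in the 27 traced cells (horizontal) and the 6 untraced Postn+ cells (vertical), both in log2 (TPM + 1), with 1 point per gene, a line of equal means and dashed lines 2 units to either side. Below the lower line lie 1157 of 9187 genes and above the upper line 209.

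Housekeeping and secretory genes give a scale for these differences. Of 12 abundant genes of every cell, 1 was lower by over 2 units and 0 higher, with a median of -0.91 (without cell 77, 0 lower, 0 higher and -0.58). Over all genes that passed the filter, 12.6% were lower and 2.27% higher, with a median of -0.70. Actb stayed between 11.80 and 13.85 in the 6 cells, with a difference of -0.05, while Gapdh was at -2.96 (without cell 77, -1.64). Gapdh was at 10.95 in cell 43, 8.87 in cell 72, 8.48 in cell 82, 6.69 in cell 47 and 4.43 in cell 78. Of 15 ER folding and secretory genes, 7 were lower and 0 higher, with a median of -1.75 (without cell 77, 5 lower, 0 higher and -1.21). Over all genes the share lower was 12.6% (without cell 77, 11.6%). The list ran from Sec61b, a subunit of the translocon, at -4.89 to the chaperone Hsp90b1 at 1.45. Cell 72 detected 14 of these 15, cell 82 detected 13, cell 43 detected 12, cell 47 detected 10, cell 77 detected 7 and cell 78 detected 6.

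**Figure D5:**
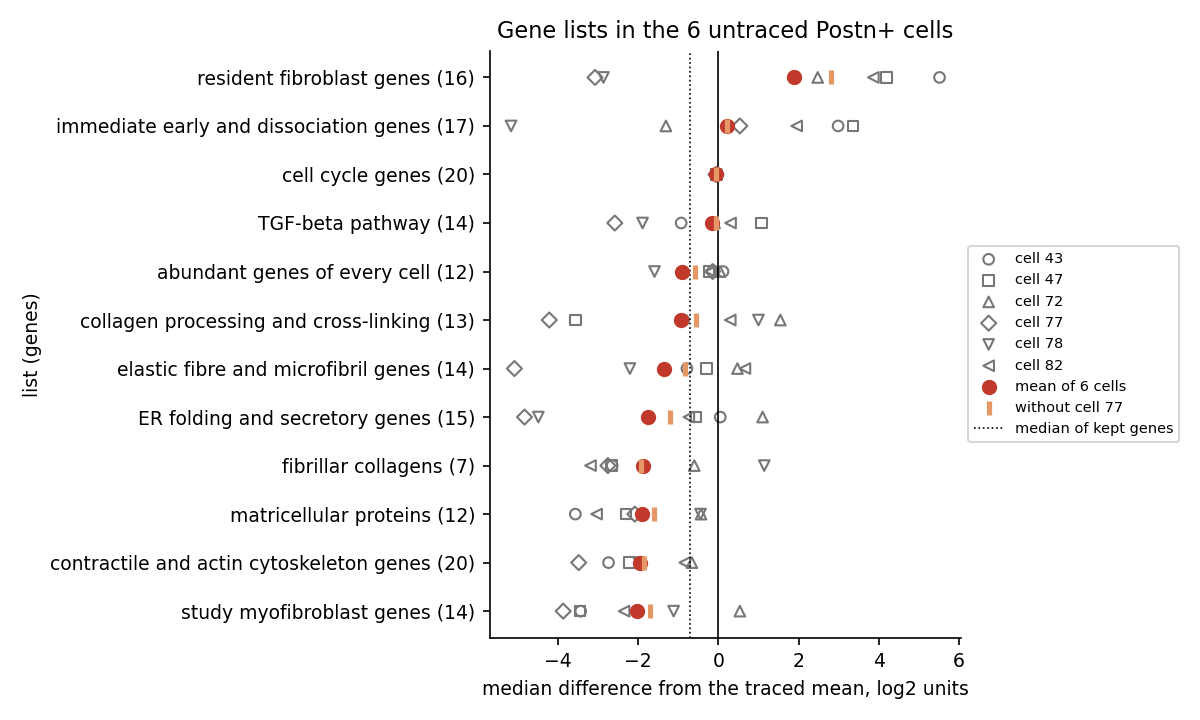
Median over each gene list of the level minus the traced mean, in log2 (TPM + 1) units, with 1 open point per cell of the 6, a filled point for their mean, a tick for the mean without cell 77 and a dotted line at the median of all kept genes (-0.70). For the study myofibroblast genes the filled point lies at -2.04 and cell 72 at 0.54, and for the resident fibroblast genes the filled point lies at 1.89 with cells 77 and 78 near -3.

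Untraced Postn+ cells were also present in 2 other captures of the series, the larger of which held Tcf21-traced cells. The study used both Postn MCM/+; R26-eGFP and Tcf21 MCM/+; R26-eGFP mice, and the labels do not say which of them gave these cells, so which tracer they lacked is unknown. In both captures together, Acta2 was above 5 TPM in 12 of 22 such cells (54.5%, 32.2 to 75.6%), 11 of 19 in one capture and 1 of 3 in another. Their gene numbers had medians of 3361 and 5179, higher than the 2234.5 of the 6 cells. Fn1 was above 5 TPM in 17 of the 19 and in 3 of the 3, against 2 of the 6 here, and Tcf21 in 6 of the 19 and 2 of the 3, against 4 of the 6. Acta2 and Fn1 were thus detected in many cells of the same class name elsewhere in the series, with higher gene numbers, and tracer, mice, capture and gene number cannot be told apart in this comparison.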

How the data were processed

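The values are TPM per gene and cell, deposited by the authors on a log2 scale as log2 (TPM + 1), from 1 library per cell. The submitters' processing notes name Bowtie 1.0.0, eXpress 1.5.1 and the mm10 build. All 17171 genes and 185 labelled cells of the table were read; 3 columns without a sample were not used. No cell was removed and doublets were not called. Classes came from the labels. Genes above 5 TPM in at least 3 of the 33 Postn+ cells were kept (9187), and a difference of class means over 2 log2 units was counted. Named genes were the 10 farthest each way (higher among genes above 5 TPM in at least 3 of the 6 cells, lower in at least 14 traced cells), the listed genes and those at 0 in the 6 cells; others were chosen after their values were seen. The members and lists were chosen with earlier results of these data known, and 2 genes of the glial and 1 of the TGF-beta list were left out afterwards. Read depth per cell is unknown, so gene number was used. The code was tested on simulated data. Alternatives changed the pseudocount, average, scaling, filter, size and cells. Calculations ran in Python 3.11.15 with pandas 2.3.3, NumPy 2.4.6 and SciPy 1.17.1, and plots in Matplotlib 3.10.9. Gene positions are from GENCODE vM21.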

Additional observations from a re-analysis of the deposited data

Results flagged for a closer look

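Within the 6 cells, 35 measures were looked at for 1 cell far from the other 5, by the gap between the extreme cell and its nearest neighbour as a share of the whole range, set against Dixon's 95% critical value for 6 values. By chance about 1 in 20 groups passes such a limit; 7 of 35 did. A gene listed at 0 in 5 cells gives a share of 1 by construction, so the 7 cannot be read against that rate.

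The number of glial genes passed at 0.75, because cell 77 detected 4 of 4 genes and the other cells at most 1. Genes had been left out of that list after the values were known, so this pass is not independent of them. Tnc, at 6.62 in cell 72, passed at 1, the other 5 cells being listed at 0. Pecam1, at 3.73 in cell 82, also gave 1 with the other 5 at 0. Apoe passed at 0.632, because cell 78 stood at 2.46 and the next lowest cell at 8.94. Mrps21, at 4.74 in cell 72, gave 1. Med1, at 0.96 in cell 43 and so under 5 TPM, gave 1. Fkbp10, at 5.23 in cell 72, gave 1. Of the 7, cell 72 was the cell apart in 3 genes found in most traced cells.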

How the results depend on the processing

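Of 120 recomputed values, 17 moved by more than the spread or by more than 1.5 times the count and 0 reversed. The other 103 are no measure of stability: some could not move (Acta2 when a cell at 0 is left out, list medians under another filter), and the spread of the resident fibroblast median between cells, 2.32, exceeds its value of 1.89. The differences of the study myofibroblast genes (-2.77 to -1.29), of the resident fibroblast genes (1.11 to 3.71) and of the gene number (-1785 to -1198) kept their signs under every alternative run. The Acta2 difference ran from -7.67 to -2.95, and its sign was fixed by the 6 values of 0. The counts of genes moved most. The higher and lower counts were 418 and 2593 with a pseudocount of 0.1 TPM, 96 and 428 with 5 TPM, 756 and 3713 with means on the linear scale, 774 and 3407 at a size of 1 log2, and 46 and 370 at 3 log2. The size changes a count by construction; the cause of the other moves was not tested. The higher count alone moved to 345 with medians over cells, 126 with centred cells, 118 with the filter at 10 of 33 cells and 548 without cells 77 and 78.

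Leaving out each cell in turn gave 216 to 354 higher genes, 1063 to 1560 lower genes, -4.25 to -4.25 for Acta2, -2.58 to -1.68 for the study myofibroblast genes, 1.15 to 2.82 for the resident fibroblast genes, -1432 to -1385 for the gene number and 1 to 2 cells nearer to the traced mean (1 without cell 72 or 78, each being 1 of the 2). With the genes apart between traced and Postn- cells, 3 of 6 were nearer to the traced mean. With the sets of class genes chosen at a gap of 3 log2, which left 150 and 32 genes, 3 and 4 of the 6 cells were within range. Added after seeing the data were the traced cells with a Y-linked gene, the pair of cells of fewest genes and the list without Postn. The gap of 3 log2 and leaving cells out of the count of nearer cells were also added then. Leaving out cells below 50% of the capture median gene number removed 0 cells.

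No paired analysis was possible because the labels do not link cells to mice. With 6 cells of unknown split over mice, the classes stand as 1 sample each, and mouse and class cannot be told apart. The sex-linked genes were divided by class only in part. A Y-linked gene was above 5 TPM in 4 of the 6 and 10 of 27 traced cells, and Xist in traced cells alone. Depth per cell is unknown, and Gapdh in cell 77 and Fth1 in cell 78 are listed at 0, so a value of 0 is no measure of absence.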

Other observations

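The genes of the next sentences were picked one by one after their values were seen and stand for no list. Il6, a cytokine of acute inflammation, was at 12.39 in cell 82, 11.62 in cell 43, 7.99 in cell 47 and 3.13 in cell 72, and listed at 0 in cells 77 and 78. It was above 5 TPM in 9 of 27 traced cells, up to 10.65, and in 9 of 24 Postn- cells, so cells 43 and 82 were above every traced cell. Cxcl1, a chemokine that attracts neutrophils, was above 5 TPM in 6 of 6 cells, 21 of 27 traced and 21 of 24 Postn- cells, with cell 47 at 13.42 and cell 43 at 12.86. Ccl2, a chemokine for monocytes, was above 5 TPM in 1 of 6 cells, 5 of 27 traced and 3 of 24 Postn- cells, with a difference of -1.28. Ccl7, a related chemokine, was at 11.84 in cell 43 and 9.92 in cell 72 and listed at 0 in the other 4. Mmp3, a matrix-degrading protease, was at 11.09 in cell 82 and listed at 0 in the other 5, above the traced maximum of 9.16. Timp1, which inhibits such proteases, was at 10.09 in cell 77, 8.40 in cell 82 and 4.87 in cell 72 and listed at 0 in the other 3, against 25 of 27 traced cells above 5 TPM. Mt1, a metal-binding stress gene, was between 9.81 and 13.66 in the 6 cells and between 4.27 and 13.28 in the traced cells, with cells 43, 47 and 82 above the traced range.

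The immediate early genes were far apart between the 6 cells and near the traced level in their mean. Of 17 genes, 1 was lower by over 2 log2 units and 0 higher, beside 12.6% lower and 2.27% higher over all genes. The median of the list was 0.21, with the sign turning to -0.12 in centred cells. Ier3 was the lowest at -4.22 and Btg2 the highest at 0.93. The 6 cells detected 15, 13, 9, 13, 4 and 14 of the 17 genes, cell 78 having the 4, and the traced cells 4 to 15. Their summed level was 37465 TPM in cell 43 and 36569 TPM in cell 47, above the traced maximum of 26831 TPM, 22409 TPM in cell 77, 21987 TPM in cell 82, 2521 TPM in cell 72 and 32 TPM in cell 78. In the Postn- cells the sum reached 40547 TPM. Of 20 cell cycle genes, 4 passed the filter, and the median over all 20 was -0.05. The spindle gene Tpx2 was at 5.40 in cell 82, and each of the 6 cells detected at most 1 gene of the list.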
